A study of Homo sapiens with 5 samples.

Results

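Segmental duplication gene families are groups of related genes and pseudogenes in copied blocks of the human genome, and many of the copies are near-identical. Their intervals were taken from 4 deposited lists of enriched places (peaks) on the genome build hg38, all from A549, an established human lung adenocarcinoma line. The members were chosen by the authors' nearest-gene name: every listed peak whose name began with 1 of 14 stems was kept (POTE, NBPF, GOLGA6, GOLGA8, TBC1D3, NPIP, SPATA31, PRAMEF, ANKRD20A, LRRC37, FRG1, FRG2, ARHGAP42P or DEFB). Merging peaks that share an interval left 476 family intervals of 63391 in all, carrying 132 gene names. Since being listed chose the members, the counts per list describe the lists and were not tested.

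FOXM1, a forkhead factor that drives genes of cell division, and LC3, a ubiquitin-like protein family attached to autophagosome membranes, were each immunoprecipitated from untreated A549 cells, which per the labels' protocols were fed 10% fetal bovine serum; formaldehyde at 1% was applied for 10 minutes. DNA of extracellular vesicles (evDNA) was sequenced with no antibody from untreated control cells and from cells kept in EBSS, a salt solution that lacks amino acids and serum, for 3 days; the cells used for vesicles grew without serum. The series title ties FOXM1 to the choice of chromatin DNA that enters vesicles. Each group had 1 library, so nothing could be compared with replicate error, and every interval below covers counting error only. The input library was not analysed here. Peak lists hold no expression values, so the labelled cell line could not be checked against marker genes.

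A read from one copy of such a family can match another copy equally well, and the sources used here do not say how the authors placed such reads. Each place named below is therefore uncertain as to which copy it came from. Single-end reads of 50 bases and paired-end reads of 150 bases are both given for the series, without saying which library had which. The lists may therefore differ in how well they tell copies apart, and this was not tested. Many families were spread in primates by a shared core of duplicated sequence, and they gather beside centromeres and telomeres and in interspersed blocks on a few chromosomes. Members range from proteins of testis and cancer cells (POTE, PRAMEF, SPATA31) and proteins that regulate Rab GTPases (TBC1D3) to antimicrobial peptides (DEFB, the beta-defensins) and pseudogene copies (FRG1 copies, ARHGAP42P).

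The label and the data differed on 4 points. The beta-defensins, the second stem by intervals, had promoter windows for 18 genes, where RefSeq held 57. Pairs of these windows were not near-identical, with a median identity of 50.3% and at most 64.8%. Copies without a window were not compared. No interval was assigned to FRG1 itself, the gene on chromosome 4 beside the region of facioscapulohumeral dystrophy: all 178 FRG1-stem intervals were assigned to pseudogene copies on chromosomes 9, 20 and 22. The TBC1D3 stem also caught 9 intervals of TBC1D30, TBC1D31 and TBC1D32, which are other genes: 3 LC3, 4 control evDNA and 2 EBSS evDNA intervals. Many intervals lay far from the gene that named them, up to 837 kb at FRG1CP; 28 of 53 FOXM1, 12 of 45 LC3, 99 of 210 control evDNA and 89 of 168 EBSS evDNA intervals were intergenic and over 10 kb from the gene start.

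Promoter sequences show an example of near-identical copies and where the lists touched them. The sequences are the 250 bases before the RefSeq gene start, on GRCh38.p14, the assembly that hg38 names. Shown first is the promoter that RefSeq lists as ANKRD20A4-ANKRD20A20P, at the start of ANKRD20A4, chr9:64369144-64369393, plus strand, an ankyrin repeat family gene and the family promoter that FOXM1 and LC3 intervals both covered. TBC1D3F, chr17:36439522-36439771, minus strand, is the promoter that both vesicle lists covered. TBC1D3H, chr17:36388436-36388685, minus strand, is its near copy and carried an LC3 interval. Capitals mark the bases covered by intervals: by FOXM1 and LC3 together at ANKRD20A4 (245 bases), by control and EBSS evDNA together at TBC1D3F (107 bases) and by LC3 at TBC1D3H (44 bases).
ANKRD20A4-ANKRD20A20P: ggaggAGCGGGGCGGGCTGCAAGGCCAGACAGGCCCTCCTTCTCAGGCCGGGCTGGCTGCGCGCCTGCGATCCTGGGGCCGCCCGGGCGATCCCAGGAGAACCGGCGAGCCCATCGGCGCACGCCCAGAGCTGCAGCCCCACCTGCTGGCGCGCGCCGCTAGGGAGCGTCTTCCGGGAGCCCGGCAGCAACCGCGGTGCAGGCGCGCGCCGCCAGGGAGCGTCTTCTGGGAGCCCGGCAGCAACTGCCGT
TBC1D3F: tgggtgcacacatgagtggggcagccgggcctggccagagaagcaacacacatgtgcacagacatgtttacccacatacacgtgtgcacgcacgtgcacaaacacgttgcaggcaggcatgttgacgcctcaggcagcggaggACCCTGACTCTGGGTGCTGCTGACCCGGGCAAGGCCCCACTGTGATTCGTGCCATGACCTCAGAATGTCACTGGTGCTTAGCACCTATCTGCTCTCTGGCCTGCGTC
TBC1D3H: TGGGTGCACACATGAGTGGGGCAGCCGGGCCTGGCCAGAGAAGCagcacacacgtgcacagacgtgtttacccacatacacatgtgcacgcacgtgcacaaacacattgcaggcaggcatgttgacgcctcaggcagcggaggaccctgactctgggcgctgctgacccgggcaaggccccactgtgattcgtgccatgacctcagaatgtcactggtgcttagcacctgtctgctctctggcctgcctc
Over the window of 250 bases before and 50 after the start, TBC1D3F and TBC1D3H were 97.3% identical. TBC1D3F matched other copies by as little as 71.3%, and the median over TBC1D3 pairs was 82.9%. Other stems ranged widely, from medians of 47.2% in POTE and 49.3% in NBPF to 88.7% in GOLGA8 and 96.7% in FRG2. A low median over all pairs does not exclude close copies, since the highest pair reached 100% in POTE and 97.7% in NBPF.

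RefSeq held 149 such windows for the families, and intervals touched 14 of them: FOXM1 touched 1, LC3 4, control evDNA 6 and EBSS evDNA 5. The 14 windows are 9.4% of the family's, where 3.22% of all 35116 windows were touched by any list. By list, 0.671% (0.017% to 3.68%), 2.68% (0.736% to 6.73%), 4.03% (1.49% to 8.56%) and 3.36% (1.1% to 7.66%) of family windows were touched. Over all windows it was 0.177%, 1.79%, 0.931% and 0.478%, which lies inside the family interval for FOXM1 and LC3. Of the 16 intervals that touched a family window, few had a q of at most 0.05: LC3 at ANKRD20A4 and control evDNA at TBC1D3F and POTED. Word sharing was measured as the share of 50-base words of a window that also occur, on either strand, in another gene's window. Overlapping windows of neighbouring genes count too, as for FRG1 and its neighbour FRG1-DT, so shared words are not all from copies. The median share was 64.5% in family windows and 0 over all 35116 windows. Some word was shared in 73.2% of family windows against 19.8% of all, and every word in 18.8% against 2.14%. The beta-defensin windows, 21 from 18 genes, stood apart from those of the other stems with many windows. None of them shared a word, whereas all 10 TBC1D3 windows did, with a median of 100%. The 6 letters TAAACA, the core that forkhead factors bind, were searched on both strands with no other motif. They occurred in 14.1% of family windows and 12.3% of all windows, with 10 of 10 TBC1D3 windows, which are copies of one another, 2 of 2 FRG1 windows, 5 of 14 NPIP windows and none of the GOLGA6, GOLGA8, SPATA31, PRAMEF and LRRC37 windows. The FRG1 windows are those of FRG1 and FRG1-DT, which overlap each other, and none belongs to a pseudogene copy. The ANKRD20A4 promoter, the only window that a FOXM1 interval touched, belongs to a family with 1 window, which had no match.

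FRG1 copies were the largest stem in every list. They gave 27 of the 53 FOXM1 intervals, 12 of the 45 LC3 intervals, 73 of the 210 control evDNA intervals and 66 of the 168 EBSS evDNA intervals. Beta-defensins came next in the vesicle lists with 38 control and 30 EBSS intervals, but had 2 in FOXM1 and 6 in LC3. NBPF, a family of proteins with repeated Olduvai domains, had 9 FOXM1, 3 LC3, 19 control and 12 EBSS intervals. TBC1D3 had 1 FOXM1, 7 LC3, 14 control and 11 EBSS intervals. The remaining 10 stems had at most 4 intervals each in an immunoprecipitation list and at most 14 in a vesicle list.

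**Figure D1:**
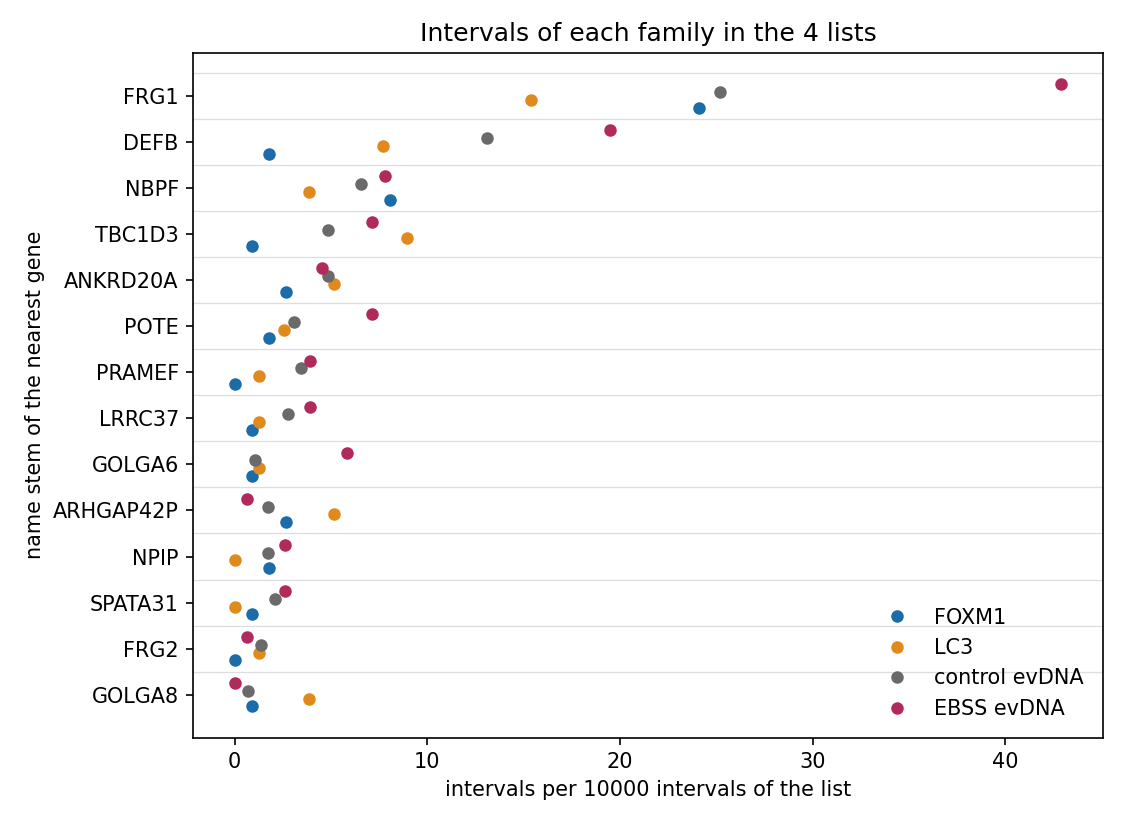
Intervals of each family per 10000 intervals of the list, by name stem of the nearest gene; each dot is 1 list. FRG1 copies lead every list, with 24.1 (FOXM1), 15.4 (LC3), 25.2 (control evDNA) and 42.9 (EBSS evDNA), and DEFB is at 1.79, 7.69, 13.1 and 19.5.

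A few gene names made up much of the total. FRG1CP and FRG1GP had 50 intervals each, FRG1DP 37 and DEFB115 36, together 36.3% of all family intervals. Of the 132 gene names, 67 occurred in 1 list, 42 in 2, 18 in 3 and 5 in all 4, namely FRG1CP, FRG1GP, FRG1DP, POTEG and ANKRD20A4. Those 5 are 3.79% of the family names, close to the 3.73% of all 23228 gene names that occurred in all 4 lists. RefSeq genes were also counted, matched by symbol or synonym to the names of all intervals, without TBC1D30, TBC1D31 and TBC1D32. Through synonyms this count can include genes whose listed name lies outside the 132. Of 307 RefSeq family genes FOXM1 named 28 (9.12%), LC3 31 (10.1%), control evDNA 92 (30%) and EBSS evDNA 67 (21.8%). Over all 59778 RefSeq genes the shares were 7.67%, 7.19%, 16.5% and 11.5%. The vesicle lists named more of the families' genes and more of all genes than the immunoprecipitations did. The gap between family genes and all genes was also wider in the vesicle lists. Whether list length accounts for this was not tested.

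Relative to its length, the EBSS evDNA list held the most family intervals. The share was 0.473% of the FOXM1 list (95% exact Clopper-Pearson interval 0.355% to 0.619%) and 0.577% of the LC3 list (0.421% to 0.771%). It was 0.724% of control evDNA (0.63% to 0.829%) and 1.09% of EBSS evDNA (0.933% to 1.27%). The confidence intervals of FOXM1 and LC3 overlapped, and that of EBSS evDNA lay above those of the other 3 lists. A longer list reaches weaker places, and at equal list lengths the intervals of control (1.17% to 1.71%) and EBSS evDNA (1.43% to 2.02%) overlapped. At those lengths FOXM1 had 0.538% (0.388% to 0.727%) and LC3 0.577%. Among intervals with a q of at most 0.05 alone, control evDNA had 2.31% (1.86% to 2.84%) and EBSS evDNA 4.25% (3.29% to 5.4%). FOXM1 had 2.71% (6 of 221, 1% to 5.82%) and LC3 2.71% (8 of 295, 1.18% to 5.27%). With so few intervals, the ranges of FOXM1 and LC3 overlapped those of both vesicle lists, so their order is not settled.

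Authors' folds over the local background, a linear ratio, had like medians in the 4 lists and higher maxima in the vesicle lists. Family intervals in FOXM1 ran from 2.21 to 5.52 with a median of 3.19, against 2.89 in the rest of the list. LC3 ran from 1.87 to 5.69 with a median of 3.14, against 3.02. Control evDNA ran from 1.93 to 16.8 with a median of 3.13, against 2.84, and EBSS evDNA from 1.99 to 14.6 with a median of 3.14, against 2.79. Folds of 5 or more were found at 1 of 53 FOXM1, 1 of 45 LC3, 17 of 210 control and 10 of 168 EBSS family intervals. Neither this count nor the maximum was taken over the rest of the lists, so both describe the family intervals alone. Fragment counts behind the family summits, recovered from fold and p, had medians of 7 in FOXM1, 9 in LC3, 10 in control and 11 in EBSS evDNA. Their local background was somewhat higher than elsewhere, with medians of 1.23, 2.08, 2.2 and 2.46 fragments against 1.08, 1.96, 2.04 and 2.12 in the rest. Without intervals whose background was 10 fragments or more the results moved little: 41.6% of control family intervals had a q of at most 0.05 in place of 42.4%, and the EBSS minus control difference given below was 0.369 points in place of 0.366.

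**Figure D2:**
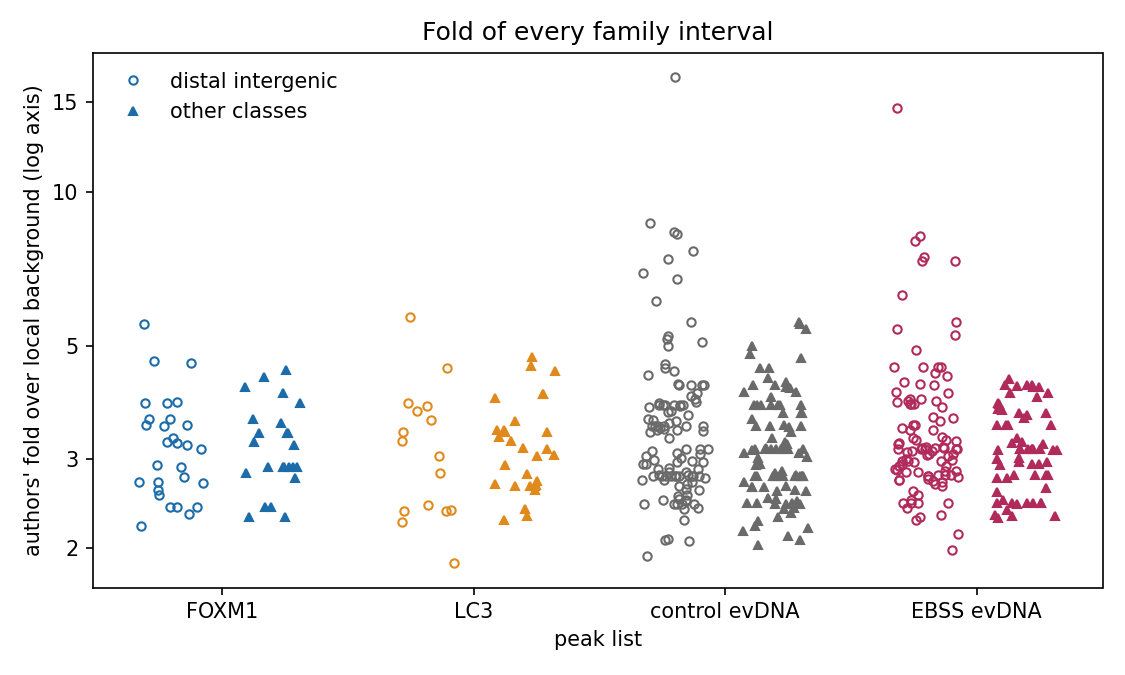
Authors' fold over the local background (log axis) of all 476 family intervals by list; open circles are distal intergenic intervals and triangles all other classes. The highest folds, 16.8 in control and 14.6 in EBSS evDNA, are distal intergenic, and the other classes reach 5.57 at most.

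Family intervals carried low q values more often than the lists around them. In FOXM1, 6 of 53 had a q of at most 0.05, or 11.3% (4.27% to 23%), where 1.97% of the whole list did. In LC3 it was 8 of 45, or 17.8% (8% to 32.1%), against 3.78% of the list. In control evDNA it was 89 of 210, or 42.4% (35.6% to 49.4%), against 13.3%, and in EBSS evDNA 64 of 168, or 38.1% (30.7% to 45.9%), against 9.77%. Most members in each list therefore did not reach a q of 0.05, and these shares describe the listed intervals without a test. In control evDNA 43 of 73 FRG1 and 21 of 38 DEFB intervals passed, and in EBSS evDNA 27 of 66 and 21 of 30, so these stems held most of the passing vesicle intervals.

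Overlap with another list by at least 1 bp was likewise more frequent than in the whole lists. It was found for 15 of 53 FOXM1 family intervals, 28.3% (16.8% to 42.3%), against 3.81% of the list. For LC3 it was 18 of 45, 40% (25.7% to 55.7%), against 5.97%. For control evDNA it was 77 of 210, 36.7% (30.1% to 43.6%), against 7.66%, and for EBSS evDNA 76 of 168, 45.2% (37.6% to 53.1%), against 13.1%. Among intervals with a q of at most 0.05 alone the gap was narrower in EBSS evDNA, with 56.2% (43.3% to 68.6%) of the family against 42.3% of the rest, and 42.7% (32.3% to 53.6%) against 16.1% in control evDNA. In FOXM1 it was 66.7% (4 of 6, 22.3% to 95.7%) against 34.9%, and in LC3 50% (4 of 8, 15.7% to 84.3%) against 19.5%. Between FOXM1 and LC3, 15.1% of FOXM1 family intervals and 20% of LC3 family intervals met, against 1.32% and 1.91% of the rest. Between the vesicle lists, 32.4% of control and 41.1% of EBSS family intervals met, against 6.28% and 11.8% of the rest.

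**Figure D3:**
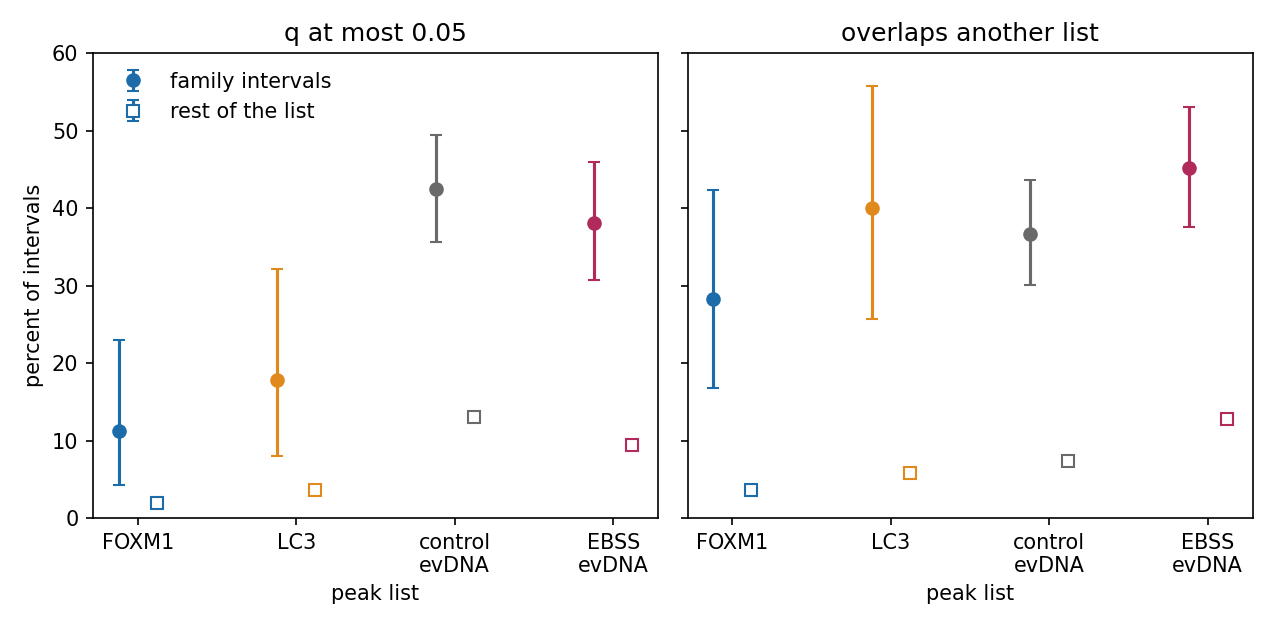
Percent of intervals with q of at most 0.05 (left) and percent that overlap another list (right), for family intervals (filled, with 95% exact intervals, counting error only) and the rest of each list (open squares). In each list the family value lies above the rest, for example 42.4% against 13.1% for q in control evDNA and 45.2% against 12.8% for overlap in EBSS evDNA.

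The same measures were higher still at tandem arrays and lower at olfactory receptor genes. Tandem arrays were the GAGE, USP17L, TAF11L, REXO1L, DUX4, CT45A, CT47, XAGE and SPANX genes, with 189 intervals. A q of at most 0.05 was found for 36.8% of their FOXM1, 53.3% of LC3, 73.3% of control and 72.5% of EBSS intervals. Olfactory receptors, a large family that also lies in clusters, had 575 intervals and shares of 0.833%, 1.56%, 12.6% and 7.69%. Overlap with another list was 63.2%, 73.3%, 66.3% and 81.2% at the arrays and 5%, 12.5%, 9.2% and 16.9% at the receptors. The families lay between these 2 sets for both measures in all 4 lists. Distal places passed more often than those near the gene: in control evDNA 31.5% (23% to 41%) of intervals in or within 10 kb of the gene and 54.5% (44.2% to 64.6%) of the distal ones had a q of at most 0.05, and in EBSS evDNA 26.6% (17.3% to 37.7%) and 48.3% (37.6% to 59.2%). The rest of the lists had the same direction, with 12.1% near and 15.2% distal in control and 7.64% and 13.4% in EBSS evDNA.

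Chromosome 20 held far more of the family intervals than of other intervals. It had 22 of 53 FOXM1 (41.5%), 9 of 45 LC3 (20%), 68 of 210 control evDNA (32.4%) and 66 of 168 EBSS evDNA family intervals (39.3%), where the rest of the lists had 2.05%, 4.64%, 2.8% and 2.76%. Chromosome 22 had 13.2%, 6.67%, 13.8% and 14.9%, against 0.449%, 0.812%, 1.18% and 1.66% of the rest. These chromosomes carry the FRG1CP, FRG1DP, FRG1EP, FRG1FP and FRG1GP copies, so the choice of stems sets much of this share. Chromosome 1, home of NBPF and PRAMEF, had 5 FOXM1, 4 LC3, 29 control and 16 EBSS intervals. Chromosome 17, with TBC1D3 and LRRC37, had 2, 5, 17 and 15.

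By class, distal intergenic places were more frequent and introns less frequent than in the rest of the lists. Distal intergenic intervals were 54.7% (40.4% to 68.4%) of the family in FOXM1, 35.6% (21.9% to 51.2%) in LC3, 53.8% (46.8% to 60.7%) in control and 61.9% (54.1% to 69.3%) in EBSS evDNA. The rest had 43%, 29.2%, 38.5% and 38.3%, which lies inside the family interval for FOXM1 and LC3. Introns held 13.2%, 6.67%, 12.9% and 10.7% of family intervals, against 39.5%, 29.2%, 39.9% and 38.3% of the rest. Places within 1 kb of a gene start were 15.1%, 33.3%, 15.2% and 10.1%, against 6.06%, 28.5%, 9.24% and 9.38%. The class followed the stem: 149 of the 178 FRG1 intervals were distal intergenic, whereas 13 of the 24 POTE intervals and 9 of the 17 PRAMEF intervals lay within 1 kb of a start.

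The FRG1 copies on chromosome 20 named the family intervals of highest fold in both immunoprecipitations, but these intervals lay far from the copies. FRG1CP, a transcribed pseudogene at 28580633 to 28602665, named 16 FOXM1, 4 LC3, 16 control and 14 EBSS intervals. Those of FOXM1 lay 41 to 557 kb from its start and those of LC3 78.9 to 202 kb. Its FOXM1 folds had a median of 3.3 and reached 4.66 at 28517979 to 28518520 and 4.62 at 28547000 to 28547393, with 18 and 15 fragments. The highest FOXM1 fold of the families, 5.52 at 28872309 to 28872797, was assigned to FRG1DP, 208 kb away. The highest LC3 fold, 5.69 at 28523269 to 28523786, was assigned to FRG1CP and overlapped a FOXM1 interval of fold 3.59. Another shared place of FOXM1 and LC3 at FRG1CP, 28517979 to 28518622, had folds of 4.66 and 4.51.

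In vesicle DNA the intervals assigned to the same copies reached higher folds. FRG1DP was highest in control evDNA with 8.68 at 28888974 to 28890279, 190 kb from the gene, with 33 fragments over a background of 2.91. In EBSS evDNA the highest fold of the chromosome 20 copies was 8.03 at FRG1CP, 28307938 to 28308305, where control evDNA had 5.22. FRG1GP, a pseudogene copy on chromosome 22, had 24 control and 19 EBSS intervals against 4 in FOXM1 and 3 in LC3. Its strongest place, 12693352 to 12694123, had folds of 8.29 in control and 8.2 in EBSS evDNA, and 1.87 in LC3. Of the smaller copies, FRG1EP had 1 FOXM1, 0 LC3, 5 control and 6 EBSS intervals with folds up to 5.4. FRG1FP had 2, 0, 4 and 4 with folds up to 4.14, and FRG1JP on chromosome 9 had 0, 1, 6 and 5 with folds up to 5.

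DEFB115, a beta-defensin gene on chromosome 20, named the strongest family place in the series. Its 18 control and 18 EBSS intervals lay 15.6 to 205 kb before the gene start, in a stretch of 190 kb from 31052038 to 31242100, and no FOXM1 or LC3 interval was assigned to it. The nearest place, 31241505 to 31242059, had a fold of 16.8 in control evDNA with 105 fragments over a background of 5.33 and a −log10 q of 89.6. In EBSS evDNA the place at 31241415 to 31242100 had a fold of 14.6 with 83 fragments over 4.77 and a −log10 q of 66.2. The next highest control place, 31157307 to 31158456, had 8.35, and 2 EBSS intervals of 5.24 and 4.89 overlapped it. In both lists 17 of the 18 intervals had a q of at most 0.05. The stretch lies beside the gene and not on it. Its local background was high, with medians of 7.16 fragments in control and 4.31 in EBSS evDNA.

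**Figure D4:**
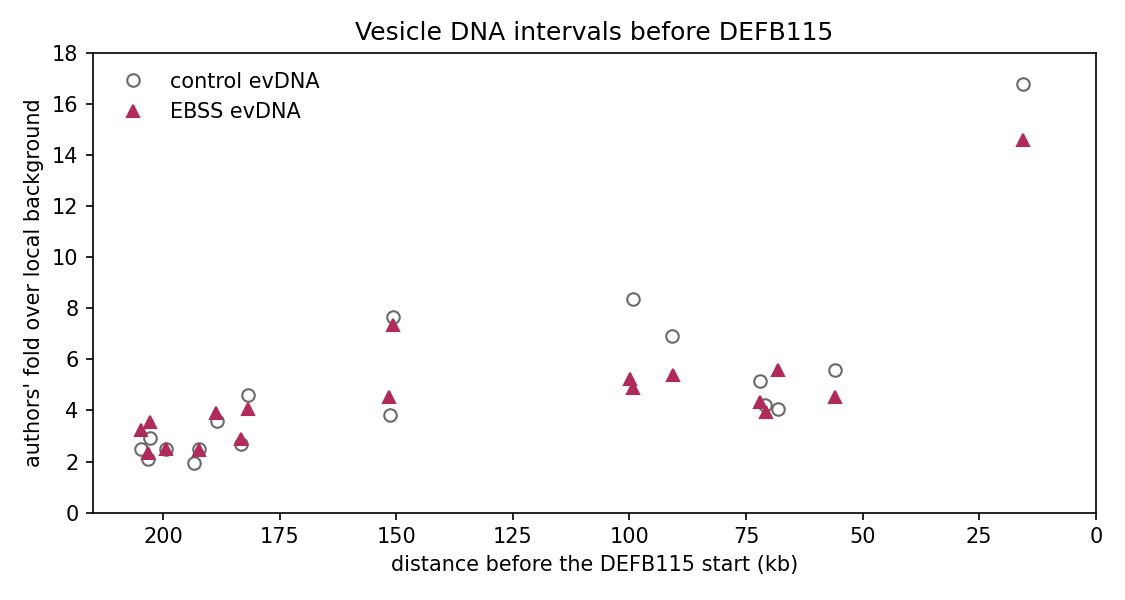
Authors' fold of the 18 control evDNA (circles) and 18 EBSS evDNA (triangles) intervals against the distance before the DEFB115 start in kb. The strongest place, 15.6 kb before the start, has 16.8 in control and 14.6 in EBSS evDNA, and the others stay at or below 8.35.

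Places assigned to the other beta-defensin genes were weaker, with 20 control and 12 EBSS intervals. DEFB125 at the tip of chromosome 20 had 2 places that both vesicle lists covered: 62024 to 63023, with 3.43 in control and 4.24 in EBSS evDNA, and 64890 to 65519, with 4.46 and 3.87. All 6 LC3 intervals and both FOXM1 intervals of the stem were at other defensin genes, with folds of 2.37 to 4.45 and of 2.41 to 2.89.

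POTE genes encode ankyrin repeat proteins of testis, ovary, prostate and several cancers. They had 2 FOXM1, 2 LC3, 9 control and 11 EBSS intervals, and POTEG on chromosome 14 was the member in all 4 lists. At its start, 19433707 to 19434304, FOXM1 had a fold of 3.19, LC3 3.31 and EBSS evDNA 2.45, and none of these reached a q of 0.05. The highest POTE fold, 4.74 in LC3 at 19436214 to 19436576, lay 1.87 kb from the start, where control evDNA had 3.59.

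ANKRD20A genes also encode ankyrin repeat proteins. At the ANKRD20A4 promoter printed above, the FOXM1 interval 64369149 to 64369528 had a fold of 4.33 and the LC3 interval 64368899 to 64369414 a fold of 4.55, with 8 and 11 fragments. Only the LC3 interval had a q of at most 0.05. The vesicle intervals of the gene did not lie there: control evDNA had 3.13 at 4.78 kb and EBSS evDNA 2.45 at 3.57 kb from the start. At ANKRD20A21P on chromosome 20 a place from 30751394 to 30752659 had folds of 2.41 in FOXM1, 3.13 in control and 3.15 in EBSS evDNA.

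ARHGAP42P pseudogenes, copies of ARHGAP42, held 3 FOXM1, 4 LC3, 5 control and 1 EBSS intervals. At ARHGAP42P5 on chromosome 14, 18624147 to 18625671, FOXM1 had a fold of 4.48, the highest of the stem, LC3 2.8 and control evDNA 4.24. At ARHGAP42P4 on chromosome 14, 19688520 to 19689075, the folds were 2.81, 3.15 and 4.18. EBSS evDNA had no interval at either place.

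TBC1D3 genes, which encode proteins of the TBC domain class found in Rab GTPase activators, clustered on chromosome 17. TBC1D3F had 1 LC3, 2 control and 4 EBSS intervals. Its highest fold, also the highest of the stem, was 4.98 in control evDNA at 36437807 to 36438191, where EBSS evDNA had 4.3. At the promoter printed above, control evDNA had 3.97 and EBSS evDNA 2.95, and at the TBC1D3H promoter LC3 had 2.27. Given the 97.3% identity of these 2 windows, reads of one could have been placed at the other.

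NBPF1 on chromosome 1 had 1 FOXM1, 4 control and 2 EBSS intervals with folds of 2.03 to 2.93. NBPF14 held the highest fold of its stem, 4.31 in control evDNA at 148587133 to 148587523. NPIP genes, the core of the duplicated blocks on chromosome 16, had 2 FOXM1, 0 LC3, 5 control and 4 EBSS intervals. The highest was NPIPA8 with 5.57 in control evDNA at 18338516 to 18338838, where EBSS evDNA had 4.19.

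LRRC37 genes, leucine-rich repeat genes mostly on chromosome 17, had 1, 1, 8 and 6 intervals in FOXM1, LC3, control and EBSS evDNA. LRRC37A4P was highest with 4.73 in control evDNA at 45518974 to 45519263. PRAMEF genes, relatives of the tumour antigen PRAME, had 0, 1, 10 and 6, and PRAMEF8 was highest with 4.18 in control evDNA at 13288608 to 13289400 on chromosome 1. SPATA31 genes, expressed in sperm development, had 1, 0, 6 and 4, and SPATA31A7 at 61191981 to 61192248 and SPATA31A6 at 42188922 to 42189183, both on chromosome 9, shared the highest fold, 3.14 in EBSS evDNA; none of these 11 reached a q of 0.05.

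Golgin-like genes, relatives of Golgi coiled-coil proteins, came from chromosome 15 under 2 stems. GOLGA6 had 1 FOXM1, 1 LC3, 3 control and 9 EBSS intervals, and its highest fold was 4.14 at GOLGA6L3 in EBSS evDNA, 85245009 to 85245297. GOLGA8 had 1, 3, 2 and 0, and its highest was 4.04 at GOLGA8G in FOXM1, 28529687 to 28530027. FRG2 itself, on chromosome 4 like FRG1, had no interval assigned to it. Its pseudogene copies on chromosomes 3, 16, 20 and 21 had 0, 1, 4 and 1. The highest was at FRG2DP on chromosome 16, 3.24 in control evDNA at 35478161 to 35478450. With so few intervals a stem, these counts are descriptions.

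Merging overlapping family intervals across lists gave 375 places. Of these, 290 were in 1 list (77.3%), 76 in 2 (20.3%), 8 in 3 (2.13%) and 1 in all 4 (0.267%). Over all 60713 places of the lists, merged the same way, the shares were 96%, 3.81%, 0.196% and 0.0362%. The place in all 4 lists was assigned to FRG1CP, at 28513310 to 28513874 on chromosome 20, with folds of 3.5 in FOXM1, 3.25 in LC3, 4.52 in control and 4.54 in EBSS evDNA, each with a q of at most 0.05. The 8 places in 3 lists were those of ARHGAP42P5, ARHGAP42P4, POTEG, ANKRD20A21P and FRG1GP (12693352 to 12694123) given above, and 3 more at FRG1 copies. At FRG1CP, 28787950 to 28788407, FOXM1 had 2.7, control 2.48 and EBSS 2.99. At FRG1DP, 29059189 to 29059547, FOXM1 had 3.3, LC3 2.43 and control 3.56. At FRG1GP, 12191023 to 12191463, LC3 had 3.85, control 3.3 and EBSS 3.14. FRG1 copies made up 5 of the 9 places in 3 or more lists. Vesicle lists alone held 286 places (76.3%, against 69% of all places), the immunoprecipitations alone 68 (18.1% against 30%), and 21 joined the 2 kinds (5.6% against 1.01%).

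The vesicle lists met at 66 places, 17 at DEFB115, 32 at FRG1 copies and 17 at other family genes; 50 of the 66 were distal intergenic. Fold was higher in control evDNA at 41 of them and in EBSS evDNA at 25, with a median log2 ratio of EBSS over control of -0.09 and a range from -0.75 to 0.62. Spearman's rank correlation of the 2 folds across these 66 places was 0.67, a description only, since neighbouring places share sequence and background. The lowest ratio was at FRG1GP, 12561248 to 12561781, with 5.09 in control and 3.03 in EBSS evDNA. The highest was at FRG1CP, 28307938 to 28308305, with 5.22 and 8.03. Being listed in both bounds how far the folds at these 66 places can differ. Strong places of 1 vesicle list also occurred: FRG1CP at 27765671 to 27766042 had 7.34 in EBSS evDNA alone, and FRG1GP at 12559145 to 12559487 had 6.12 and FRG1HP at 40998337 to 40998762 had 5.51 in control evDNA alone.

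**Figure D5:**
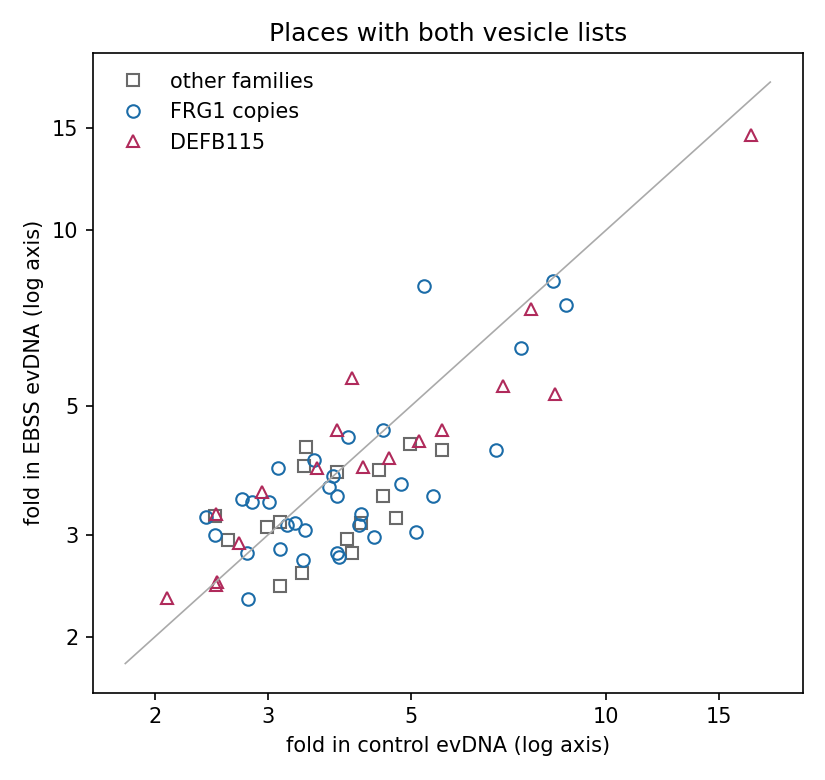
Authors' fold in control evDNA and EBSS evDNA (both log axes) at the 66 family places found in both vesicle lists; the line marks equal folds. Of the places, 41 lie below the line and 25 above it, and the DEFB115 place at 16.8 and 14.6 stands apart from the rest.

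Between EBSS and control evDNA, the families' share of the list was 0.366 percentage points larger in EBSS (normal 95% interval 0.176 to 0.557). FRG1 copies gave 0.177 points of it (0.0585 to 0.295), from 73 of 28993 control and 66 of 15402 EBSS intervals. GOLGA6 gave 0.0481 points (0.00817 to 0.088). For the other 12 stems the interval included 0, among them DEFB with 0.0637 points (-0.0174 to 0.145) and POTE with 0.0404 points (-0.00643 to 0.0872). Distal intergenic places gave 0.236 points (0.0991 to 0.374), whereas places in or within 10 kb of the gene gave 0.13 points (-0.00327 to 0.263). Intervals of 1 array are not independent of each other, so these intervals are too narrow and sort no stem as changed or unchanged. At tandem arrays the difference was 0.151 points (0.0287 to 0.274) and at olfactory receptors -0.0562 points (-0.237 to 0.125).

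In counts, EBSS evDNA had fewer family intervals than control evDNA, 168 against 210, and the larger share came with a shorter list. When each list was shortened to the same number of intervals by lowest p, the shares were 1.42% in control and 1.7% in EBSS evDNA, and the difference of 0.282 points had an interval of -0.107 to 0.671, which includes 0.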

How the data were processed

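The data were 4 peak lists, 1 library each, grouped by the antibody and treatment labels. The submitters' processing notes name FastQC 0.11.8, fastp 0.20.0, the aligner BWA, the annotation tool ChIPseeker, the peak caller MACS3 3.0.0a6 and the build hg38. The control given to the peak caller and the handling of reads that match several copies are not given in the sources used here. Deposited values per peak are a linear ratio of signal to local background (the authors' fold), a −log10 p-value, a −log10 q-value and a score. The deposited score follows the −log10 p-value and was not used. Fold and q belong to each peak alone, as the authors gave them. The deposited lists end at a −log10 p-value of 2.30 with no limit on q. Read totals are unknown.

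Peaks of 1 interval were merged to the strongest summit, leaving 11195 FOXM1, 7801 LC3, 28993 control evDNA and 15402 EBSS evDNA intervals. Fragments and background at each summit were recovered from the fold, (pileup + 1) / (background + 1), and the Poisson p; 6 of 63391 intervals had no match within 0.01, and 0 of those were family intervals. The recovery and the interval code were tested on simulated data. Overlap meant 1 bp. Exact Clopper-Pearson intervals were used for shares and normal intervals for differences, at 95%. Of 132 family names, 130 matched RefSeq on GRCh38.p14. Promoter sequences are RefSeq's. Places were named by rule: the 3 highest folds per list, places in at least 3 lists, the highest fold of each stem and the 10 genes in most lists; other genes printed were chosen after their values were seen. The members and gene sets were chosen with earlier results of these data known. Python 3.11.15, pandas 2.3.3, SciPy 1.17.1 and Biopython 1.88 were used.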

Additional observations from a re-analysis of the deposited data

How the results depend on the processing

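No paired analysis was possible because each group had 1 library, and for the same reason no library could be left out. Of 104 alternative values, 69 moved by less than their counting interval and 35 further. Of the 13 results 12 are shares without a sign; the EBSS minus control difference kept its sign in all 8 alternatives, and its interval came to include 0 in 3. With intervals of q at most 0.05 alone, the families made up 2.71% of FOXM1, 2.71% of LC3, 2.31% of control and 4.25% of EBSS evDNA, the EBSS minus control difference was 1.94 points (0.816 to 3.07), and 66.7% of the FOXM1 (4 of 6; rest 34.9%) and 56.2% of the EBSS family intervals (rest 42.3%) met another list. With places in or within 10 kb of the gene alone, the share of the list was 0.223% in FOXM1, 0.383% in control and 0.513% in EBSS evDNA, with a difference of 0.13 points (-0.00327 to 0.263); a q of at most 0.05 was found for 31.5% of control and 26.6% of EBSS family intervals (rest 12.1% and 7.64%) and overlap with another list for 26.1% and 30.4% (rest 6.38% and 10.6%). Without the FRG1 copies the share was 0.232% in FOXM1, 0.473% in control and 0.662% in EBSS evDNA, and 33.6% of control family intervals had a q of at most 0.05 (rest 13.2%). At equal list lengths the share was 1.42% in control and 1.7% in EBSS evDNA, and 80.2% and 48.1% of those family intervals had a q of at most 0.05, while the rest rose to 48.9% and 18.8% by the same construction. A −log10 q of at least 5 was reached by 0 of the FOXM1, 2.22% of the LC3, 11.4% of the control and 8.93% of the EBSS family intervals (rest 0.772%, 0.232%, 1.55% and 2.68%). Members taken by position, as intervals inside RefSeq family genes, were an alternative chosen after seeing the data: the share was 0.41% in LC3, 0.386% in control and 0.519% in EBSS evDNA, with a difference of 0.133 points (-0.000999 to 0.267); q of at most 0.05 was found for 30.4% of control and 27.5% of EBSS intervals (rest 13.2% and 9.68%), and overlap for 26.8% and 32.5% (rest 7.58% and 13%). Leaving out TBC1D30, TBC1D31 and TBC1D32, also chosen after seeing the data, moved no value beyond its interval. Fewer intervals enter each narrower setting; the cause of the other shifts was not tested. The FOXM1 and LC3 values rest on 53 and 45 family intervals with medians of 7 and 9 fragments.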
